A study of Mus musculus with 6 samples.

Results

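The DOCK proteins are guanine nucleotide exchange factors that switch on the small GTPases Rac and Cdc42. Transcripts of this family were examined in sciatic nerves of control and Rnf40ΔSC mice at postnatal day 14 (P14). The members were Dock1, Dock2, Dock4, Dock5, Dock6, Dock8, Dock9, Dock10 and Dock11, found by symbol, which makes 9 of the 24015 genes counted. The family was chosen by the level of Dock2, which had many more reads in Rnf40ΔSC than in control libraries. It was thus selected on the comparison between the genotypes, and this comparison is given for the members as a description, with neither a p nor a call. Of the 9 members, 8 passed the filter on low counts and Dock8 did not. Dock3 also belongs to the family but not to the members chosen, and its reads are given beside them.

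The study compared nerves with and without Rnf40, a subunit of an E3 ligase for histone H2B, in Schwann cells (SCs). Control mice were Rnf40 fl/fl, and Rnf40ΔSC mice carried the same floxed alleles together with the Dhh::Cre transgene, so that animals of both genotypes were floxed. All were P14 animals of a mixed background, given as 129SvJ/C57Bl/6J by the labels and as C3H crossed to C57Bl/6J by the methods. Each of the 3 libraries per genotype came from a pool of 3 sciatic nerves. Dhh::Cre acts in the SC lineage, so that the macrophages, endothelial cells and other cells of the nerve keep Rnf40 while their RNA is part of each library.

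The control libraries (replicates 1 to 3) held 1317167, 1992622 and 2468765 reads on genes, and the Rnf40ΔSC libraries 2184268, 1459387 and 2186710 reads. Levels are given as counts scaled to a library of 1000000 reads (CPM) after TMM scaling, which corrects library sizes for differences in composition. At this depth 1 read stood for between 0.411 and 0.818 CPM. Differences are log2 fold changes of Rnf40ΔSC against control nerves with their standard errors (SE), from an edgeR fit to the 11371 genes that passed the filter. Their median over all these genes was -0.00245. With total counts in place of TMM the median became 0.264, so that every log2 fold change moved upwards by about this amount.

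Rnf40 itself had 82, 116 and 165 reads in control and 109, 75 and 118 reads in Rnf40ΔSC libraries, which is 68.4 ± 4.20 CPM (SD, n = 3) against 47.2 ± 1.14 CPM (SD, n = 3). Every Rnf40ΔSC library lay below every control library. The log2 fold change was -0.54 (SE 0.14, adjusted p = 0.00243 by edgeR, Benjamini-Hochberg method), and with total-count scaling -0.27 (adjusted p = 0.116, range over all alternatives 0.00235 to 0.116). Cre removes only part of the gene, and reads from its remaining exons and from cells outside the SC lineage are counted in both genotypes.

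The libraries carried the markers of peripheral nerve. All 6 genes of a list of SC lineage markers were measured, led by Sox10, a transcription factor of the SC lineage, and their summed level was 1418, 1612 and 1533 CPM in control against 1100, 1033 and 1101 CPM in Rnf40ΔSC libraries. Rnf40ΔSC replicate 3 stood apart from the other two libraries of its group. A list of 15 skeletal muscle genes, led by Myh4, summed to 5377, 4115 and 3062 CPM in control libraries and to 122 and 317 CPM in Rnf40ΔSC replicates 1 and 2, but to 3879 CPM in replicate 3. On the second principal component of the 500 most variable genes, which held 12.8% of the variance, this library had a score of 20.3 and the others scores between -10.5 and 0.309. The members' differences are therefore also given without it.

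DOCK proteins share a catalytic domain of their own, unrelated to that of the larger Dbl family of exchange factors, and a lipid-binding domain that brings them to the membrane. They fall into subfamilies by sequence. DOCK-A and DOCK-B proteins act on Rac and form complexes with ELMO adaptors, DOCK-D proteins (the zizimins) act on Cdc42, and DOCK-C proteins have been linked to either. In SCs, Rac and Cdc42 signalling is known for its part in migration, in the radial sorting of axons and in the wrapping that precedes myelination.

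Within DOCK-A, Dock2 is best known from leukocytes, where it drives Rac activation during migration. It lies on the minus strand of chromosome 11 (34126815 to 34597394 in the GENCODE annotation of mm9). Dock2 had 6, 20 and 17 reads in control libraries and 156, 112 and 166 reads in Rnf40ΔSC libraries, which is 4.91, 11.2 and 7.54 CPM against 66.5, 69.5 and 68.2 CPM. All Rnf40ΔSC libraries lay far above all control libraries and close to each other, while the control values rest on few reads. The means were 7.89 ± 3.17 CPM (SD, n = 3) and 68.1 ± 1.51 CPM (SD, n = 3), an 8.63-fold difference in level. The log2 fold change was 3.05 (SE 0.21), with 3.06 when Rnf40ΔSC replicate 3 was left out. In RNA of a whole nerve, a change in the number of cells of a type and a change in RNA per cell cannot be told apart.

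Dock1 and Dock5 are the other members of DOCK-A. Dock1, which works with Elmo1 or Elmo2 downstream of the Crk and Bcar1 adaptors in migration and in the engulfment of dying cells, had 189, 177 and 171 CPM in control and 257, 245 and 259 CPM in Rnf40ΔSC libraries. These groups did not overlap either, but the difference was 1.42-fold, with a log2 fold change of 0.51 (SE 0.094). Dock5, known from Rac activation in osteoclasts, had 27.8, 35.9 and 35.5 CPM in control against 22.2, 26.7 and 18.5 CPM in Rnf40ΔSC libraries. After TMM scaling it was lower in every Rnf40ΔSC library, although the nearest libraries, at 26.7 and 27.8 CPM, were almost level, and with total-count scaling the groups overlapped. Its log2 fold change was -0.60 (SE 0.20), and -0.47 without Rnf40ΔSC replicate 3.

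The start sites of Dock2 and Dock1 differ in their surroundings. Their promoters are shown because both DOCK-A genes lay above control but differed in the size of their change. The sequences are the 250 bases before a start site in the RefSeq table of build GRCm38.p6, 5′ to 3′ on the strand of the gene, with the bases of CpG dinucleotides in capitals. The promoter of Dock2 is chr11:34783906-34784155 on the minus strand and that of Dock1 is chr7:134670437-134670686 on the plus strand.
Dock2: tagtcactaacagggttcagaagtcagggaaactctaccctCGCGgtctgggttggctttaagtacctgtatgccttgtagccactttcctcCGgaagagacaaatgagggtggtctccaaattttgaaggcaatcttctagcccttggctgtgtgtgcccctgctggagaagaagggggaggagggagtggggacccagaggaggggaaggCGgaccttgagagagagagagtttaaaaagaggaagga
Dock1: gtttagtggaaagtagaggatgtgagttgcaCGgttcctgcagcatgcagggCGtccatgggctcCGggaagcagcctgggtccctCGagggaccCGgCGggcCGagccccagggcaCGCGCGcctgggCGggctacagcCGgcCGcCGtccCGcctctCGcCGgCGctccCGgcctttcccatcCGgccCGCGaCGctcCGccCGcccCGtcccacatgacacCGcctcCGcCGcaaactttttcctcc
The Dock2 window holds 4 CpG dinucleotides at a GC content of 52.8%, close to the medians of all promoters in the table (6 CpG dinucleotides and 52.4% GC). The Dock1 window holds 29 CpG dinucleotides at 71.6% GC.

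The table matched 8 of the 9 members with 11 promoters, and Dock5 had no entry. For every matched member other than Dock2 at least 1 promoter held 18 or more CpG dinucleotides, up to 43 for Dock8. Dock9 had 3 promoters, with 34, 7 and 3 CpG dinucleotides. Dock10 had 2, with 27 and 5. Each window was searched on both strands for letters of the motifs of EGR factors (GCGNGGGCG), of SOX factors (ACAANG) and of the GC box (GGGCGG), which occur in 4.7%, 36.3% and 32.7% of 32851 promoters of the same length. EGR letters can overlap those of the GC box. The Dock2 window had 1 match to the SOX letters, 177 bases before the start site, and none to the others. Of the 3 Dock9 windows, 2 had 1 match each to the SOX letters, at 183 and 13 bases before the start sites. The GC box had matches in every matched member other than Dock2, with 3 in Dock1 and up to 5, in Dock6 and in a Dock9 window. EGR letters occurred in 1 member, Dock8. These matches describe the letters in a window, and use of the start sites was not measured.

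**Figure D1:**
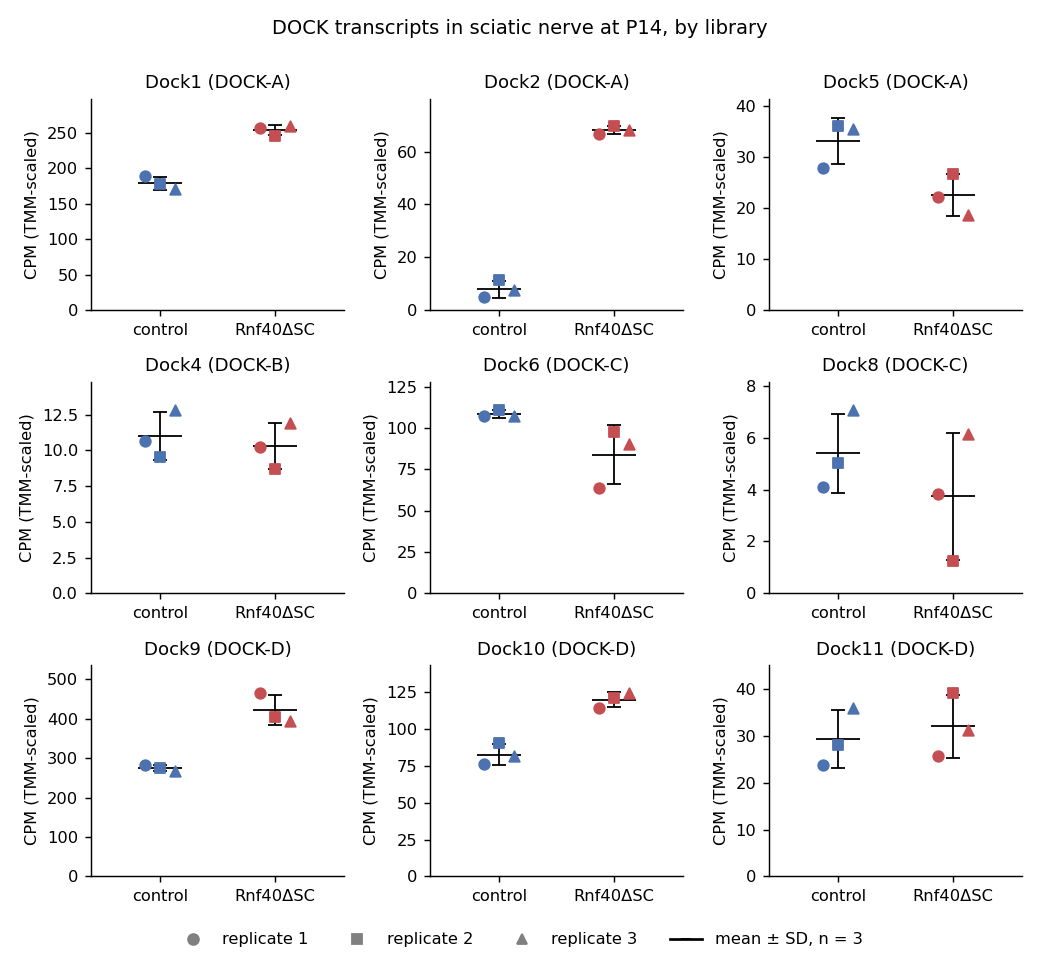
Level of each of the 9 DOCK members in CPM after TMM scaling (y axis) in control (blue) and Rnf40ΔSC (red) libraries, with a marker shape for each replicate and bars for the mean ± SD (n = 3). Dock2 lies between 4.91 and 11.2 CPM in control and between 66.5 and 69.5 CPM in Rnf40ΔSC libraries, whereas Dock4, Dock8 and Dock11 overlap between the genotypes.

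Dock4, the member of DOCK-B in this set and a Rac activator, was scarce. It had 13, 17 and 29 reads in control and 24, 14 and 29 reads in Rnf40ΔSC libraries, and the groups overlapped at 11.0 ± 1.69 CPM (SD, n = 3) and 10.3 ± 1.61 CPM (SD, n = 3). The log2 fold change of -0.096 (SE 0.30) turned to 0.17 with total-count scaling and to 0.054 without control replicate 3. Its paralog Dock3, known mainly from neurons, was nearly undetected, with 0, 1 and 0 reads in control and 7, 2 and 5 reads in Rnf40ΔSC libraries. The ratio of its summed reads, scaled by the summed library sizes after TMM, was 11.5, with an exact 95% interval of 1.75 to 487. This interval covers counting error only.

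In DOCK-C, Dock6 has been described as an activator of both Rac and Cdc42 in neurite growth. Its level was 107, 111 and 107 CPM in control and 64.0, 97.5 and 90.4 CPM in Rnf40ΔSC libraries. After TMM scaling every Rnf40ΔSC library was below control, but they varied among themselves, and replicate 1 was the lowest by a wide margin. With total-count scaling Rnf40ΔSC replicates 2 and 3 lay above all control libraries. The log2 fold change was -0.38 (SE 0.13), -0.20 without Rnf40ΔSC replicate 1 and -0.45 without replicate 3. Dock8, a Cdc42 activator needed for the migration of immune cells through tissue, had 5, 9 and 16 reads in control and 9, 2 and 15 reads in Rnf40ΔSC libraries. The groups overlapped. The ratio of its summed reads, scaled in the same way as for Dock3, was 0.714, with an exact 95% interval of 0.405 to 1.25. This interval, too, covers counting error only.

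The DOCK-D genes encode activators of Cdc42. Dock9, on the minus strand of chromosome 14 (121941261 to 122196956 in mm9), had 284, 275 and 267 CPM in control and 466, 405 and 394 CPM in Rnf40ΔSC libraries. The groups were well apart, with replicate 1 the highest of the Rnf40ΔSC libraries, and the 1.53-fold difference corresponded to a log2 fold change of 0.62 (SE 0.094). Dock10, on the minus strand of chromosome 1 (80497648 to 80755128 in mm9), had 76.1, 90.3 and 81.6 CPM in control and 114, 121 and 125 CPM in Rnf40ΔSC libraries. It too was higher in every Rnf40ΔSC library, 1.45-fold, with a log2 fold change of 0.53 (SE 0.11). Dock11 overlapped between the genotypes, at 29.2 ± 6.18 CPM (SD, n = 3) in control and 32.0 ± 6.80 CPM (SD, n = 3) in Rnf40ΔSC nerves. Its log2 fold change of 0.074 (SE 0.20) became -0.034 without control replicate 1 and -0.070 without Rnf40ΔSC replicate 2. Without Rnf40ΔSC replicate 3 the log2 fold changes were 0.51 for Dock1, 0.68 for Dock9, 0.51 for Dock10, 0.076 for Dock11 and -0.21 for Dock4.

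Counted over the family, 4 of the 9 members (Dock1, Dock2, Dock9 and Dock10) were higher in every Rnf40ΔSC library than in every control library, and 2 (Dock5 and Dock6) were lower. Of all genes tested, 22.0% were placed in this way above and 21.6% below control. With total-count scaling the same 4 members were above and 0 below, beside 38.9% and 10.3% of all genes. A gene outside the members was called when its adjusted p was at most 0.05, its log2 fold change at least 0.8 in either direction and its base mean, the mean normalized count over all libraries, at least 20. Of all genes tested, 3.65% met these limits in the higher and 4.99% in the lower direction (8.64% in either). Of the 8 members that passed the filter, Dock2 lay beyond a log2 fold change of 0.8. Nothing is read from these counts of members, since the same comparison chose the family. With total-count scaling Dock9 lay beyond 0.8 as well, at 0.88, while Dock5 and Dock6 had -0.33 and -0.11, the latter less than its SE, and neither was then apart from control. With a minimum of 10 counts in every library Dock2 itself left the fit, since control replicate 1 held 6 reads.

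**Figure D2:**
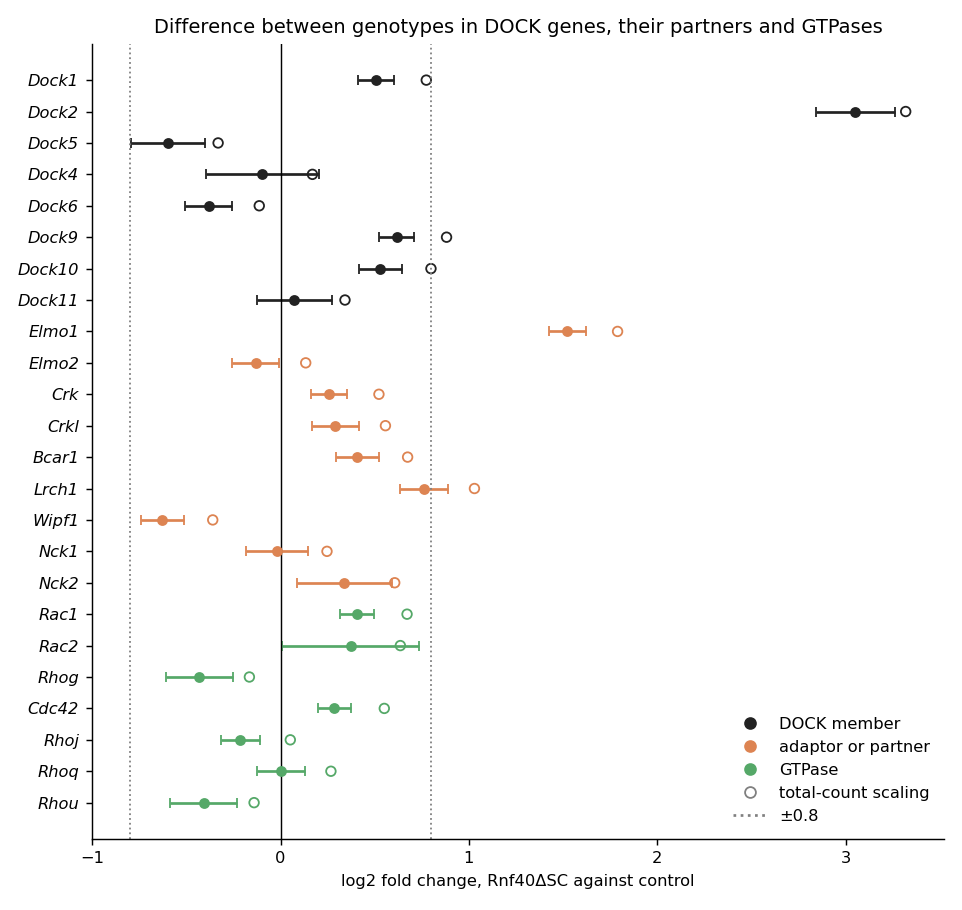
Log2 fold change of Rnf40ΔSC against control nerves (x axis) with its SE for the 8 members that passed the filter and for adaptors, partners and GTPases of DOCK proteins. Filled points are after TMM and open points after total-count scaling, and dotted lines mark 0.8 in either direction. Dock2 at 3.05 and Elmo1 at 1.52 lie beyond the line under both scalings.

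Levels of different members were compared per kilobase (kb) of exon. In control nerves Dock9 came highest, at 30.8 ± 0.924 CPM per kb (SD, n = 3), followed by Dock1 at 26.3 ± 1.36, Dock6 at 16.2 ± 0.336 and Dock10 at 10.3 ± 0.896 CPM per kb. The remaining members were far lower. Dock5 and Dock11 had 3.20 and 3.16 CPM per kb, Dock4 had 1.36, and Dock8 and Dock2 had 0.693 and 0.690 CPM per kb. Libraries overlapped between the neighbours Dock5 and Dock11 and between Dock8 and Dock2, so that these pairs have no order. Per kb of the longest transcript Dock11 stood above Dock5, and Dock2 overlapped with Dock4 as well as Dock8.

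In Rnf40ΔSC nerves Dock2 stood at 5.96 ± 0.133 CPM per kb (SD, n = 3) and held place 5 of 9, whereas in control nerves it shared the lowest places with Dock8. It was above Dock11, Dock5, Dock4 and Dock8 in every library, and below Dock9 at 47.2 ± 4.31, Dock1 at 37.3 ± 1.08, Dock10 at 14.9 ± 0.648 and Dock6 at 12.5 ± 2.64 CPM per kb. Dock10 and Dock6 overlapped and had changed places in the order of means. Per kb of the longest transcript, Dock2 stood at 10.6 ± 0.236 CPM per kb (SD, n = 3), again at place 5 by its mean, but overlapped with Dock6 at 12.8 ± 2.70, so that these had no order, and Dock10 at 16.4 ± 0.713 CPM per kb was apart from Dock6.

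Summed over the 9 members, the level was 732 ± 9.88 CPM (SD, n = 3) in control and 1016 ± 12.5 CPM (SD, n = 3) in Rnf40ΔSC nerves. Per kb, Dock2 made up 0.743% of this family sum in control and 4.76% in Rnf40ΔSC nerves, or 1.25% and 7.75% when the longest transcript replaced the union of exons. Dock6 took 17.5% and 10.02%, and Dock5 3.45% and 1.73%. The shares of Dock1 (28.4% and 29.7%) and Dock10 (11.1% and 11.9%) differed little between the genotypes. Of the 9 members Dock9 and Dock1 had the largest differences in level, and Dock2 the largest fold.

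**Figure D3:**
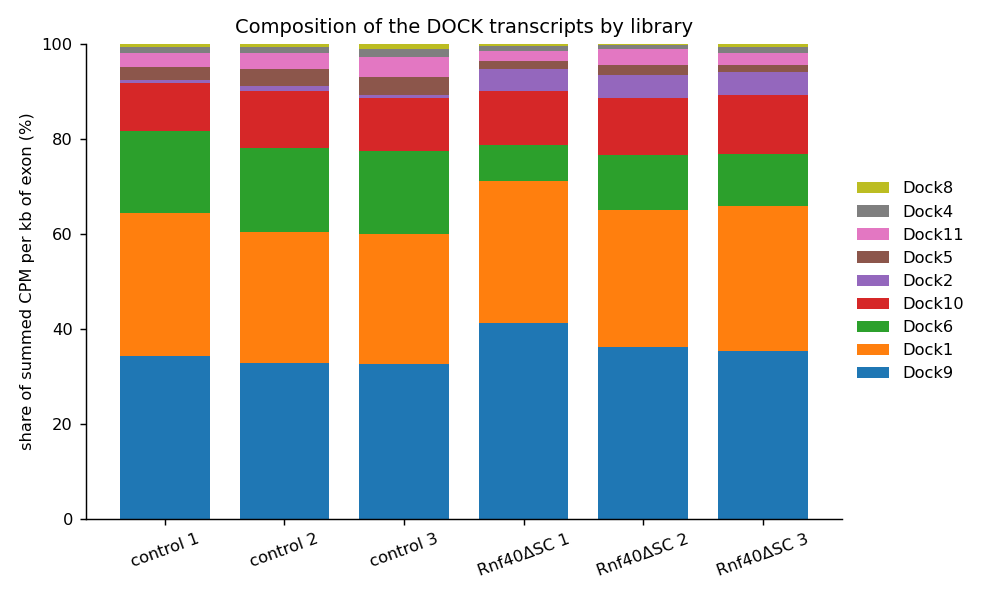
Share of each DOCK member in the summed CPM per kb of exon (y axis, %) in each of the 6 libraries (x axis). Dock9 and Dock1 form the largest shares in every library, Dock2 widens from 0.743% to 4.76% on average and Dock6 narrows from 17.5% to 10.02%.

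Some genes overlap members on the opposite strand. Fam196b lies inside Dock2 (34214822 to 34322640 on the plus strand of chromosome 11, mm9) without shared exon bases. It had 13, 32 and 37 reads in control and 52, 38 and 57 reads in Rnf40ΔSC libraries, far fewer than Dock2 in the latter, with a log2 fold change of 0.58 (SE 0.23, adjusted p = 0.0517 from the edgeR test, range over all alternatives 0.00318 to 0.202). With total-count scaling its log2 fold change of 0.84 met the limits of a call. Another transcript, 4930403D09Rik, shares 460 exon bases with Dock2 and was not among the genes counted. The nested genes Fam196a in Dock1 and Gm6484 in Dock6 had at most 4 and 1 reads in any library. No stretch of 50 bases of any member's transcripts recurred in another DOCK gene, so that unique reads of this length would not be divided between paralogs.

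Across the 6 libraries, the log2 CPM of Dock10 followed that of Dock2 most closely among the members (Pearson r = 0.990), ahead of Dock1 (0.941) and Dock9 (0.939). Dock11 (0.309) and Dock4 (-0.308) showed little likeness, and Dock6 (-0.690) and Dock5 (-0.744) ran in the opposite sense. Of the genes tested outside the family, Ptgds (0.999), Ncan (0.999), Trmt12 (0.998), Trpm3 (0.998) and Pdlim5 (0.998) were most like Dock2. Rap1b, Anpep, Ntn1, Sgms1 and Fbxo7 were least like it, with r between -0.998 and -0.994. These values describe 6 points that share the division into genotypes and the libraries, and 1031 genes had an r above 0.9.

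Elmo1 encodes the scaffold that binds DOCK-A and DOCK-B proteins and releases their activity towards Rac. It had 139, 214 and 243 reads in control and 795, 551 and 731 reads in Rnf40ΔSC libraries, or 114 ± 6.18 CPM (SD, n = 3) against 327 ± 23.2 CPM (SD, n = 3). All Rnf40ΔSC libraries lay above all control libraries, and Elmo1 rose with a log2 fold change of 1.52 (SE 0.099, adjusted p = 3.32e-15 by the edgeR test). Its promoter with the most CpG dinucleotides, chr13:20090257-20090506 on the plus strand, is shown because Elmo1 is the DOCK partner that was called higher, and is marked in the same way.
Elmo1: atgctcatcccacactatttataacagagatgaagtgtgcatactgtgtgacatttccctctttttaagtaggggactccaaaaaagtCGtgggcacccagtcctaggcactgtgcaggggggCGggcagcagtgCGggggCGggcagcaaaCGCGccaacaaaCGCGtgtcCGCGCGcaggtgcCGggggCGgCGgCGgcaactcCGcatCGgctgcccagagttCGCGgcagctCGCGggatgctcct
This window holds 21 CpG dinucleotides, 1 match to the EGR letters at 116 bases before the start site and 3 to the GC box. It has no match to the SOX letters. A further Elmo1 promoter has 5 CpG dinucleotides and 3 matches to the SOX letters.

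Of 10 adaptors and partners of DOCK proteins, 9 were tested and Elmo1 was the 1 called. Elmo2, by contrast, overlapped between the genotypes at 79.7 and 72.2 CPM. Its log2 fold change was -0.13 (adjusted p = 0.456) and became 0.13 with total-count scaling, and Elmo3 had at most 6 reads. Lrch1, which binds DOCK8 and restrains it, passed an adjusted p of 0.05 below the minimum fold change, at a log2 fold change of 0.76 (adjusted p = 1.07e-05), as did Bcar1 at 0.41 (0.00498). Lrch1 was called as well with total-count scaling (1.03) and without control replicate 1 (0.82). Crk had a value of 0.26 (0.0395) and did not pass without control replicate 1, 2 or 3 (0.100, 0.0872 and 0.109), without Rnf40ΔSC replicate 1 (0.193) or with DESeq2 without its fold-change prior (0.0900, range over all alternatives 4.61e-05 to 0.193). Crkl had 0.29 (0.0741), and an adjusted p of 0.0452 without Rnf40ΔSC replicate 2 (range over all alternatives 5.18e-04 to 0.290). Wipf1, whose protein links DOCK8 to actin, fell by 0.63 on the log2 scale (3.21e-05). For Nck1 and Nck2 the values were -0.019 (0.947) and 0.34 (0.326), and that of Nck1 became 0.25 with total-count scaling and 0.11 without Rnf40ΔSC replicate 3.

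Of 9 genes for GTPases of the Rac and Cdc42 subfamilies, 7 were tested and 0 were called in either direction, by edgeR or by DESeq2, while 2 were higher and 3 lower at an unadjusted p under 0.05. Rac1 and Cdc42, the substrates of the abundant members, were higher in every Rnf40ΔSC library. Rac1 rose by a log2 fold change of 0.41 (adjusted p = 6.73e-04) and Cdc42 had 0.28 (0.0116), which did not pass 0.05 without control replicate 1 (0.0542), control replicate 3 (0.0907) or Rnf40ΔSC replicate 2 (0.0958), over a range of 3.61e-06 to 0.0958. Rac2, the Rac of blood cells and a substrate of DOCK2 there, had 5, 12 and 18 reads against 25, 9 and 21 reads and overlapped (log2 fold change 0.37, adjusted p = 0.474). Rhog, which acts upstream of ELMO and DOCK, had a log2 fold change of -0.43 (0.0602) and passed without control replicate 2 (0.0357) or Rnf40ΔSC replicate 3 (0.0160), over a range of 0.0160 to 0.493. Rhou had -0.41 (0.0786), with 0.0214 without control replicate 1 and a range of 0.0214 to 0.563. The value of Rhoj was -0.21 (0.112) and became 0.052 with total-count scaling. That of Rhoq was 0.0022 (0.992), with -0.043 without control replicate 1 and -0.12 without Rnf40ΔSC replicate 1. Rac3 and Rhov had too few reads for a test.

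The wider pathway was described by lists of genes that act on Rac and Cdc42, above them or below them. Of its 170 genes, 149 were tested, of which 8 were called higher and 5 lower, beside 3.65% and 4.99% of all genes. With total-count scaling 14 were called higher and 2 lower, where of all genes 1002 were called higher and 262 lower. The median log2 fold change of the pathway genes was -0.0997, beside -0.00245 for all genes. In 50 tested genes of the Dbl family, the other large family of exchange factors, the median was -0.16. Arhgef19 was called higher at 0.95 (adjusted p = 0.0152, but 0.0631 without control replicate 3, 0.0677 without Rnf40ΔSC replicate 3 and 0.0756 with DESeq2 without its fold-change prior, range 0.00159 to 0.0756). Its base mean was also under the minimum without Rnf40ΔSC replicate 1 (19.3) or 2 (19.9). Plekhg3 (-1.21, 4.65e-12) and Plekhg2 (-0.89, 2.60e-10, but -0.63 with total-count scaling and then short of a call) were called lower, and by adjusted p alone 3 Dbl genes were higher and 14 lower, where 15.5% of all genes tested were higher and 16.2% lower.

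Of 26 tested genes for GTPase activating proteins of Rac and Cdc42, which switch off what DOCK proteins switch on, 2 were called higher and 1 lower, around a median of -0.15. Arhgap15, a Rac inhibitor known from leukocytes, had 3, 6 and 9 reads in control against 56, 47 and 51 reads in Rnf40ΔSC libraries, without overlap. It rose with a log2 fold change of 2.82 (SE 0.32, adjusted p = 4.80e-09), a size close to that of Dock2. Like Dock2 it left the fit with a minimum of 10 counts in every library. Over the other alternatives its log2 fold change lay between 2.28 and 3.08. Srgap1 rose as well (1.05, 2.66e-11), while Chn2 fell (-1.27, 3.09e-06).

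Downstream, 39 effector genes of Rac and Cdc42 were tested, with a median of 0.055. Pak1, a kinase activated by Rac and Cdc42 (1.44, adjusted p = 2.69e-09), the Cdc42 effector Cdc42ep3 (1.30, 6.10e-10) and Baiap2, which joins Rac to the WAVE actin regulator (1.14, 1.30e-10), were called higher. Cdc42ep2 was called lower (-0.96, 5.93e-04), but at -0.69 not with total-count scaling. By adjusted p alone 11 effector genes were higher and 4 lower, beside the same 15.5% and 16.2% of all genes. Of 14 tested receptors reported upstream of DOCK proteins, with a median of -0.22, 1 was called in each direction, and by adjusted p alone 1 was higher and 5 were lower. Cxcr4, the chemokine receptor that signals through DOCK2 in lymphocytes, rose from 10, 12 and 23 reads in control to 61, 52 and 65 reads in Rnf40ΔSC libraries (log2 fold change 1.72, SE 0.25, adjusted p = 9.71e-07), and Lrp1 fell (-0.86, 4.60e-06). The call of Lrp1 was lost with total-count scaling (-0.59) and without Rnf40ΔSC replicate 2 (-0.72).

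**Figure D4:**
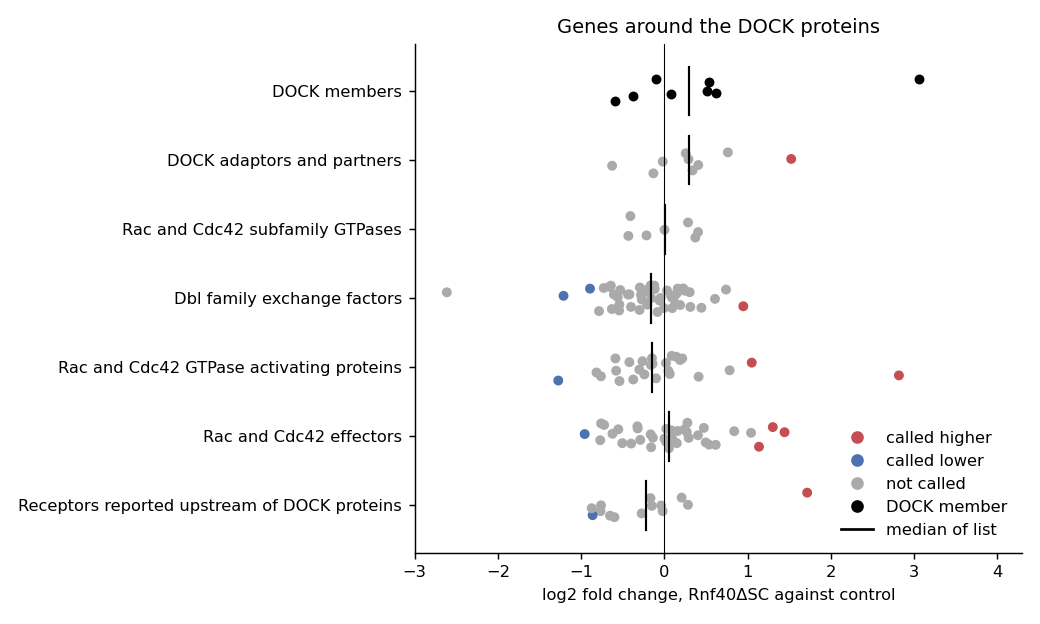
Log2 fold change of Rnf40ΔSC against control nerves (x axis) for each tested gene (points) of the DOCK members and of the lists around them (y axis), with the median of each list as a line and the genes called higher in red or lower in blue. Dock2 at 3.05 and Arhgap15 at 2.82 lie furthest to the right, and the grey point furthest to the left is Arhgef16 at -2.61, named after its value was seen, with a base mean of 13.4.

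Since Dock2, Arhgap15 and Cxcr4 are best known from leukocytes, markers of such cells are given beside Dock2. Of 22 macrophage and leukocyte markers 19 were tested, 0 were called higher and 2 lower by edgeR, and 9 were lower by adjusted p alone, as were 16.2% of all genes tested. At an unadjusted p under 0.05, 0 were higher and 11 lower, and DESeq2 called 0 higher and 1 lower. Their median log2 fold change was -0.44 and their summed level 756, 711 and 741 CPM in control against 515, 510 and 513 CPM in Rnf40ΔSC libraries. These levels are of RNA in whole nerve and do not count cells. By staining, the study reported more macrophages in Rnf40ΔSC than in control nerves at P14. In its RNA-Seq at that age, it found no sign of a substantial rise in genes of inflammation and immune response. The most abundant of the markers, Csf1r, fell by 0.63 on the log2 scale (adjusted p = 2.96e-04, range over all alternatives 1.55e-05 to 0.0321). Its log2 fold change lay between -0.77 and -0.36 over the alternatives, and with total-count scaling the groups overlapped. Cd74 (-0.89, 1.37e-05) and Cd68 (-0.81, 0.00402, but -0.55 and 0.117 without control replicate 3, range 0.00206 to 0.117) were called lower. With total-count scaling neither reached the minimum fold change (-0.62 and -0.54), and without Rnf40ΔSC replicate 2 Cd68 did not (-0.72). Ptprc, which marks all leukocytes, had 6, 18 and 15 reads against 15, 11 and 11 reads, and Aif1 had at most 3 in any library.

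Other genes of the Rac pathway in blood cells are set beside Dock2 as well. In a list of 19, of which 13 were tested, Arhgap15 was the 1 called, 3 were lower by adjusted p alone (Arhgdib among them), and the median was -0.42. The summed level was 242, 234 and 227 CPM in control and 196, 171 and 178 CPM in Rnf40ΔSC libraries. Vav1, the exchange factor typical of blood cells, had 2, 7 and 9 reads in control and 4, 5 and 7 reads in Rnf40ΔSC libraries.

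Lymphocyte markers were near the limit of detection. Of 11 T and NK cell markers, 8 had at most 3 reads in any library, with 0 reads for Cd8a throughout, and their sum was 4.91, 6.73 and 5.32 CPM in control and 7.68, 15.5 and 15.2 CPM in Rnf40ΔSC libraries. Cd4 made up most of the latter, with 0, 3 and 6 reads in control and 14, 16 and 22 reads in Rnf40ΔSC libraries (log2 fold change 2.24, adjusted p = 7.85e-04, range 1.71e-04 to 0.0096, base mean 9.21, and a log2 fold change of 2.97 without control replicate 3). All 4 B cell markers found, with Cd79b as the most abundant, and 5 of 7 neutrophil markers had at most 3 reads in any library, while Ngp, the most abundant neutrophil marker, had at most 5 and S100a9 at most 4. Of 5 tested mast cell markers Cpa3 (-1.03, 3.20e-04) and Tpsb2 (-1.05, 0.0087, but 0.125 without control replicate 3, range 0.00651 to 0.125) were called lower. Both fell short of the minimum fold change with total-count scaling (-0.76 and -0.78), and Cpa3 also did without control replicate 3 (-0.78). Tpsb2 also missed an adjusted p of 0.05 with DESeq2, both without its fold-change prior (0.0522) and with it (0.0505). Which cells of the nerve held the Dock2 transcripts was not tested.

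**Figure D5:**
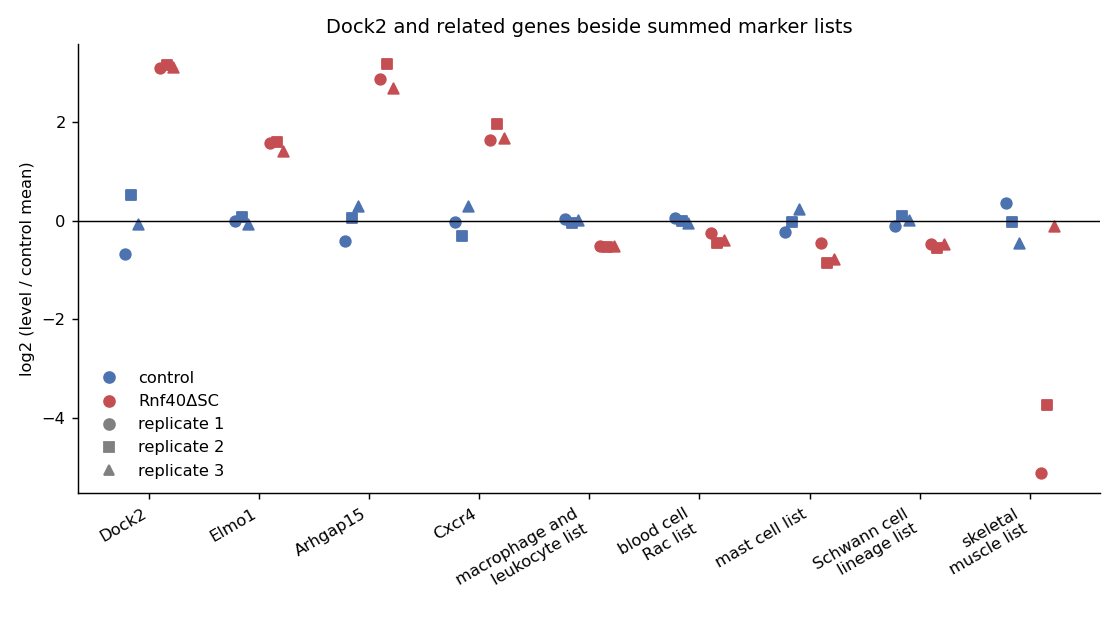
Level of Dock2, Elmo1, Arhgap15 and Cxcr4 and summed level of lists of marker genes in each library, as log2 of the ratio to the control mean (y axis), with control libraries in blue and Rnf40ΔSC libraries in red. The genes lie above control in all Rnf40ΔSC libraries while the macrophage and leukocyte list lies below, at 510 to 515 CPM against 711 to 756 CPM, and the skeletal muscle list sets Rnf40ΔSC replicate 3 apart.

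Markers of SCs also differed between the genotypes. Of the 6 SC lineage genes, Cdh19 (log2 fold change -1.20, adjusted p = 4.98e-09) and S100b (-0.89, 3.05e-09) were called lower and Foxd3 (0.90, 4.61e-05) higher, around a median of -0.69, and the most abundant, Sox10, fell short of the minimum fold change (-0.79, 8.87e-09), but met it without control replicate 1 (-0.84) or Rnf40ΔSC replicate 1 (-0.81). S100b fell short of it with total-count scaling (-0.62) or without Rnf40ΔSC replicate 3 (-0.78), and Foxd3 without control replicate 1 (0.76) or Rnf40ΔSC replicate 2 (0.796). Of 9 genes of immature and promyelinating SCs, 5 were called higher, among them Pou3f1 (2.05, 1.00e-11) and Sox2 (1.96, 1.55e-08), and 2 lower, among them L1cam (-1.87, 7.87e-14), around a median of 0.81. With total-count scaling 5 were called higher and 1 lower. The summed level of this list was 879, 896 and 848 CPM in control and 1623, 2012 and 1586 CPM in Rnf40ΔSC libraries. This sum lay above control in all Rnf40ΔSC libraries, as did Dock2, Elmo1, Arhgap15 and 22.0% of all genes tested. Pou3f1, the most abundant gene of the list, weighed most in the sum, with means of 195 CPM in control and 804 CPM in Rnf40ΔSC nerves. The genes did not move together, since Ngfr (-0.90) was called lower beside L1cam, and Cdh2 (-0.29) and Jun (0.11) were not called. The part of this list in the difference of Dock2 was not tested.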

How the data were processed

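RNA-Seq libraries of sciatic nerve (3 control, 3 Rnf40ΔSC) were analysed from gene counts. The authors aligned reads to mm9 with TopHat, used HTSeq to count unique reads by gene, and deposited these counts unnormalized. The submitters' processing notes name Bowtie2 2.1.0 and both mm9 and mm10. Annotation and strand setting of the counting are not given in the sources used here, so that overlapping and antisense genes are uncertain. The labels and the methods also name different library kits.

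The test was edgeR's robust quasi-likelihood test (edgeR 4.0.16, R 4.3.3) after filterByExpr and TMM, with a term for genotype alone and p-values adjusted over 11371 genes by the Benjamini-Hochberg method. All adjusted p-values come from this test unless DESeq2 1.42.0 is named. The edgeR fit was tested on simulated data. Replicates differed by more than sampling noise (chi-square per degree of freedom 1.78 to 5.21). Library totals ran from 1317167 to 2468765 reads, which leaves genes with few reads imprecise. CPM per kb used the union of exons of GENCODE vM1 (mm9), and promoters came from RefSeq (GRCm38.p6).

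Alternatives were RLE or total-count scaling, DESeq2 (with and without a prior on fold changes), no filter or one of at least 10 counts per library, a block for replicate number, omission of each library, adjusted p alone, and the longest transcript as length. Named were all members, Rnf40, Dock3, all adaptors, partners and Rac and Cdc42 subfamily GTPases, called genes of the other pathway lists, the most abundant and up to 3 called genes of each marker list, the 5 genes most and the 5 least like Dock2 by Pearson correlation of log2 CPM with a prior count of 2, and genes overlapping a member. Genes named besides these were chosen after their values were seen. Some genes and lists are not reported here, and were taken out of the lists after the values were seen. The members and lists were chosen with earlier results of these data known.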

Additional observations from a re-analysis of the deposited data

How the results depend on the processing

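Dock2 kept a log2 fold change between 2.77 and 3.36 under every alternative that could fit it, and between 2.88 and 3.36 with any single library left out. A minimum of 10 counts in every library gave no value for it. With total-count scaling the median log2 fold change of the other members was 0.34 in place of 0.074, and the log2 fold change of Dock4 became 0.17. With any single library left out, the median lay between -0.034 and 0.27. Total-count scaling also gave 1002 genes called higher and 262 lower in place of 415 and 567, so that 79.3% in place of 42.3% of the calls were higher. It moved Rnf40 to -0.27 (adjusted p = 0.116, range over all alternatives 0.00235 to 0.116) and reversed Elmo2 (0.13), Nck1 (0.25) and Rhoj (0.052). By adjusted p alone 1757 genes were higher and 1841 lower. The cause of these changes was not tested beyond the shift of all genes with the scaling.

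Of the members, Dock4 also changed sign without control replicate 3 (0.054), and Dock11 without control replicate 1 (-0.034) or Rnf40ΔSC replicate 2 (-0.070). Of 56 other named genes with a test, 5 changed sign under some alternative, which were Elmo2, Nck1 and Rhoj as above, Rhoq (-0.043 without control replicate 1, and -0.12 to 0.0996 over all omitted libraries) and Uchl1 (-0.24 without control replicate 3, and up to 0.48). Nck1 had -0.085 to 0.11, the latter without Rnf40ΔSC replicate 3. Of the 29 of these genes that were called, 13 lost the call under some alternative, and 4 of them (Arhgef19, Cd68, Tpsb2 and Cfd) lost an adjusted p of 0.05. With total-count scaling 11 calls were lost, all of lower genes, and 2 were gained (Lrch1 and Fam196b). DESeq2 lost 3 without and 4 with its prior, and 3 genes were not fitted with a minimum of 10 counts. Same-numbered libraries did not deviate together, with r of -0.0948, -0.0150 and -0.0621, and control replicate 3 was most like Rnf40ΔSC replicate 1 (0.104). These values gave no sign of pairing by replicate number, but with 3 libraries per genotype they cannot settle it. With the replicate number as a block, 408 genes were called higher and 565 lower, Dock2 had 3.07, the other members a median of 0.11, Rnf40 -0.54 and Rhoq -0.014, 1 call was lost (Cd68, -0.79), and adjusted p-values were 0.0574 for Crk (range over all alternatives 4.61e-05 to 0.193) and 0.0425 for Fam196b (0.00318 to 0.202). A pool of nerves per library and 3 libraries per genotype limit precision, and members with few reads (Dock2 in control nerves, Dock4 and Dock8) are the least certain.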

Other observations

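Markers of further cells of the nerve were measured in the libraries in which Dock2 differed. The medians of their log2 fold changes lay between -0.66 and -0.43, except for the lists of neuronal genes (0.21) and of skeletal muscle genes (-1.36). Of the 8 fibroblast genes Pi16 (log2 fold change -0.90, adjusted p = 6.95e-07 by edgeR) was called lower, and the most abundant, Col3a1, had -0.49. Pi16 had -0.63 with total-count scaling and was then short of a call. Of 6 perineurial genes Itgb4 (-1.69, 4.91e-16) was called lower, and the most abundant, Tjp1, had 0.47. Cldn5 (-1.12, 0.00181) was called lower among 8 endothelial genes and Kcnj8 (-0.86, 0.00204) among 8 pericyte and smooth muscle genes, while Cdh5 and Pdgfrb, the most abundant, had -0.51 and -0.65. Kcnj8 fell short of the minimum fold change with total-count scaling (-0.59), with DESeq2 with its fold-change prior (-0.78) and without Rnf40ΔSC replicate 2 (-0.77).

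Of 6 adipocyte genes Plin1 (-1.31, 4.39e-04) and Cfd (-0.95, 0.0056, but 0.0614 without Rnf40ΔSC replicate 2 and 0.0796 without replicate 3, range 9.85e-15 to 0.0796) were called lower, and Fabp4 had -0.43 (0.330). Cfd also fell short of the minimum fold change with total-count scaling (-0.69) and without control replicate 3 (-0.76). Of 4 tested neuronal genes 0 were called by edgeR or DESeq2, with 1 higher at an unadjusted p under 0.05. This gene, Snap25, was chosen after its values were seen, and it also passed the adjusted p (log2 fold change 1.496, adjusted p = 0.00375 by edgeR) but had a base mean of 11.5, under the minimum. Uchl1, the most abundant, had 0.087, or -0.24 without control replicate 3. Of the 15 skeletal muscle genes 0 were called by either tool and 0 had an unadjusted p under 0.05, with Myh4 at -2.16 (adjusted p = 0.330). Without Rnf40ΔSC replicate 3 Myh4 had -5.23 (0.00842, range over all alternatives 0.00842 to 0.520), while Dock2 had 3.06.

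Among the genes most like Dock2 across the libraries, Ncan, a proteoglycan of the matrix, had 0, 4 and 1 reads in control and 125, 77 and 118 reads in Rnf40ΔSC libraries. Its log2 fold change was 5.62, and 7.16 without control replicate 2. The values were 1.30 for Trpm3, 3.46 for Ptgds and 1.08 for Trmt12, and -1.09 for Fbxo7, of the genes least like Dock2. These are descriptions without a test, since likeness to Dock2 chose the genes.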
